A study of Mus musculus with 44 samples.

Results

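The membrane mucins are large, heavily glycosylated proteins that span the apical membrane of epithelial cells, where their extracellular part belongs to the glycocalyx and their cytoplasmic tail contacts signalling proteins. Unlike the secreted gel-forming mucins of the stomach, Muc5ac of the surface pit cells and Muc6 of the neck and gland mucous cells, they stay attached to the cell unless they are shed. 5 genes of this family were followed: Muc1, the membrane mucin of the normal gastric surface and glands, Muc4, known as a ligand of the receptor Erbb2, Muc13, a mucin of the intestinal apical membrane, Muc16, the carrier of the CA125 antigen and a binding partner of mesothelin, and Muc20, which is known to bind the receptor Met. The members were chosen by name, and their transcripts were summed to 5 of 31414 genes; 16 of the 94080 transcripts counted belong to them.

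The study compared gastric corpus mucosa of female mice on a BalbC background, aged 13 months, that either carried a disrupted gene for the beta subunit of the H+/K+ATPase (Atp4b, the parietal cell proton pump; KO) or were wild type (WT). Each genotype received either the gastrin receptor antagonist netazepide (YF476, here NTZ) or the vehicle polyethylene glycol (PEG). This gave 4 groups, namely WT/PEG with 11 libraries, WT/NTZ with 9, KO/PEG with 13 and KO/NTZ with 11. More KO/PEG libraries carry that label than mice are described for the group in the study's account, and 2 WT/PEG libraries carry the same number, so libraries were not necessarily 1 per animal and the errors and p-values below are over libraries. The tissue was biopsied mucosa with all of its cell types, and fewer cells of a type cannot be told apart from less RNA per cell.

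Between 6065084 and 21945124 estimated counts per library were deposited, so that 3 counts corresponded to 0.137 to 0.495 CPM (counts scaled to a fixed total per library, the unit of all levels unless TPM is named). Atp4b was at 2140.1 to 5737.7 CPM in the WT libraries and at 2.28 to 40.6 CPM in the KO libraries, on the side of its genotype label in every library. Corpus markers were abundant in WT (Pgc of the chief cells at 161140 CPM on average in WT/PEG, Atp4a of the parietal cells at 8089 CPM). The antral hormone gene Gast was under 6 CPM in 40 libraries and above 10 CPM in the other 4, at 14.6 CPM in the WT/PEG library of animal 120, 40.0 and 31.3 in 2 WT/NTZ libraries and 12.1 in the KO/NTZ library of animal 36. The sample titles hold a number, called the animal number here, and the groups differ in it: all 11 WT/PEG libraries are numbered 100 or above, against 4 of 9 WT/NTZ, 7 of 13 KO/PEG and 1 of 11 KO/NTZ. What the numbers stand for is not given in the sources used here.

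The start of a gene tells which stretch would carry its promoter. Because members that lie far apart rose together in KO mice, the 250 bases before the RefSeq start (build GRCm38.p6) are shown for Muc1, Muc4 and the first of the 2 starts of Muc13, and, since nearly all Muc13 counts fell on the transcript that begins farther in, also the bases of the window of the second start that lie before that transcript. The Muc4 window lies before the longest transcript, which was at a median of 0 CPM in all 4 groups. Most Muc4 counts in KO/PEG fell on transcripts that begin farther in, at 32756336 and 32776283, whose upstream bases are not shown. Capitals mark matches to any of 7 motifs, each searched on both strands.
Muc1, chr3:89228806-89229055, + strand: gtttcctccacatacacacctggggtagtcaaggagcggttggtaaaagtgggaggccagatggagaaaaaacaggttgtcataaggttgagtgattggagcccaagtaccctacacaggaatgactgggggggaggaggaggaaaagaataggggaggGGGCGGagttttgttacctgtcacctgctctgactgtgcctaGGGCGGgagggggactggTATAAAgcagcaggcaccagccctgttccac
Muc4, chr16:32735636-32735885, + strand: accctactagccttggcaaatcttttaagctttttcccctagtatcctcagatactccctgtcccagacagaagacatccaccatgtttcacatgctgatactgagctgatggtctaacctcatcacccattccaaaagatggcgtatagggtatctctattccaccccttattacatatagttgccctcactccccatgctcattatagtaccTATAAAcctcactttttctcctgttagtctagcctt
Muc13, first start, chr16:33793787-33794036, + strand: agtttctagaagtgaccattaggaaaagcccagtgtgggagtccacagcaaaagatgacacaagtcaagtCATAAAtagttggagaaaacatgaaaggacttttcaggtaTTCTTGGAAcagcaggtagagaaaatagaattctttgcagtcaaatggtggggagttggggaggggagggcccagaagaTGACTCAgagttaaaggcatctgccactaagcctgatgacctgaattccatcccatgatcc
Muc13-201, chr16:33794239-33794366, + strand: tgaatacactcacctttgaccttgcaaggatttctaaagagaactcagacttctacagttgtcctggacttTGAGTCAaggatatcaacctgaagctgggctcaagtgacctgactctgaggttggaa

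Muc1 and Muc4 share a TATAAA match, at position -31 to -26 and -36 to -31 before the start, a motif that 12.4% of the 32851 promoters in the reference hold in the 250 bases before their start, as do the shares given for the other motifs. Muc1 has 2 matches to the GC box CCGCCC (on the minus strand, 32.7% of promoters). Both Muc13 stretches hold the AP-1 motif TGACTCA (4.46% of promoters, though the second stretch shown is shorter than those windows), and the first also holds the STAT motif TTCNNNGAA (7.02%) and, on the minus strand, the CDX motif TTTATG (10.8%). The motif AGATAA of the transcription factors of the GATA family (9.99%) and the motif GTTAAT of HNF1 (6.43%) matched in none of the stretches shown, but GTTAAT occurs at position -61 to -56 before the second Muc13 start, inside Muc13-201 and so not shown. Muc16 and Muc20 held none of the 7 motifs. The Muc16 window (chr9:18674604-18674853) lies far from the only Muc16 transcript counted, which begins at 18512885 on the minus strand. A match describes the letters of the window only, and none of the 7 motifs was held by all 5 genes.

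Each member had its own level in the normal corpus. Expressed per length, as TPM (counts divided by length and scaled to one total per library) from the lengths of the counted transcripts, Muc1 had a median of 316 TPM in WT/PEG and ranked 251st of the 14893 genes tested. Muc20 followed with 3.07 TPM, then Muc4 with 0.666, Muc13 with 0.237 and Muc16 with 0.178 TPM. The last 3 overlapped in WT/PEG, where the lowest Muc4 value was 0.282 TPM and the highest Muc13 and Muc16 values were 1.39 and 0.310 TPM, and their order changed when each gene was scaled by its longest transcript. Muc1 supplied 98.7% of the summed TPM of the 5 genes in the median WT/PEG library. In KO/PEG the order became Muc1 with 1204 TPM, Muc4 with 53.3, Muc13 with 6.90, Muc20 with 6.75 and Muc16 with 1.94 TPM, and Muc13 and Muc20 overlapped. In KO/NTZ Muc20, at a median of 8.47 TPM, stood above Muc13, at 2.36 TPM.

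The first comparison asked what loss of the pump subunit does to these genes under vehicle. Muc1, Muc4, Muc13 and Muc20 were higher in KO/PEG than in WT/PEG (edgeR quasi-likelihood test, Benjamini-Hochberg adjusted p under 0.05), where 37.5% of all genes tested were called higher. Their log2 fold changes ran from 0.94 to 5.40, against a median of -0.0028 over all genes. For Muc1, Muc4 and Muc13 every KO/PEG library lay above every WT/PEG library, which held for 5.47% of genes. Muc16 was also called higher and without overlap, but it passed the filter on low counts only through the KO groups, where it is high, and is therefore not counted among them.

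Muc4 rose most. It had 0.640, 1.65 and 7.11 CPM in the lowest, median and highest of the 11 WT/PEG libraries, and 32.4, 74.2 and 197 CPM in those of the 13 KO/PEG libraries. The groups were separated by a wide gap, and the log2 fold change was 5.40 ± 0.50 (SE), a fold of 42.1 (adjusted p = 3.9e-12, edgeR), the 46th highest of the 14893 genes tested. Among animals numbered 100 or above, the only numbers in WT/PEG, it was 4.785, a fold less than that over all animals by more than 1.5 times, and was still called (adjusted p = 5.3e-09, edgeR). In KO/NTZ the values were 61.2, 105 and 202 CPM.

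Muc13 was the next. Its lowest, median and highest values were 0.256, 0.679 and 3.53 CPM in WT/PEG and 6.87, 16.6 and 105 CPM in KO/PEG. 3 KO/PEG animals stood far above the rest, animal 46 with 105 CPM, animal 31 with 88.3 CPM and animal 45 with 69.6 CPM, while the other 10 lay between 6.87 and 28.5 CPM. These 3 and animal 53, the next in Muc13, also had the 4 highest sums of intestinal epithelial markers in KO/PEG, 110 to 181 CPM against 63.1 to 99.5 CPM. Animal 46 further had the lowest sums of surface pit and neck markers of the group, the highest leukocyte sum (71.6 CPM) and the highest mitochondrial share (14.5%). The part of these in Muc13 was not tested. The log2 fold change was 4.83 ± 0.52 (fold 28.5, adjusted p = 1.76e-10, edgeR). Among animals numbered 100 or above, where those 3 are not found, it was 3.52, a fold less than that over all animals by more than 1.5 times, and was still called (adjusted p = 5.31e-08, edgeR).

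Muc16 was close to absent from WT mucosa. The 11 WT/PEG libraries held 0 to 5 counts each, 21 in all, and the 13 KO/PEG libraries held 6 to 150, 482 in all. Scaled by library size, this was a ratio of 17.5 (95% exact interval for counting error only, 11.3 to 28.6). Levels were 0 to 0.291 CPM in WT/PEG and 0.458 to 5.80 CPM in KO/PEG, so the 2 ranges did not meet although the lowest KO/PEG libraries were near the floor of 3 counts. The fitted log2 fold change was 3.69 ± 0.51 (adjusted p = 3.23e-08, edgeR), and 2.69 with limma-trend, a smaller fold by more than 1.5 times but still called (adjusted p = 2.43e-08). No WT library reached the 0.82 CPM at which the low-count filter is set, so Muc16 entered the test through the KO groups alone.

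Muc1, already abundant, changed less in fold but most in counts. Its lowest, median and highest values were 394, 501 and 651 CPM in WT/PEG and 749, 1076 and 1998 CPM in KO/PEG, without overlap. The log2 fold change was 1.15 ± 0.14 (fold 2.22, adjusted p = 3.26e-09, edgeR).

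Muc20 overlapped between the genotypes. It had 4.19, 6.69 and 9.82 CPM in the lowest, median and highest WT/PEG library and 6.03, 13.5 and 23.2 CPM in KO/PEG. 9 of 13 KO/PEG libraries exceeded every WT/PEG library, while 4 lay below the WT/PEG median. The log2 fold change was 0.94 ± 0.20 (fold 1.92, adjusted p = 6.31e-05, edgeR).

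**Figure D1:**
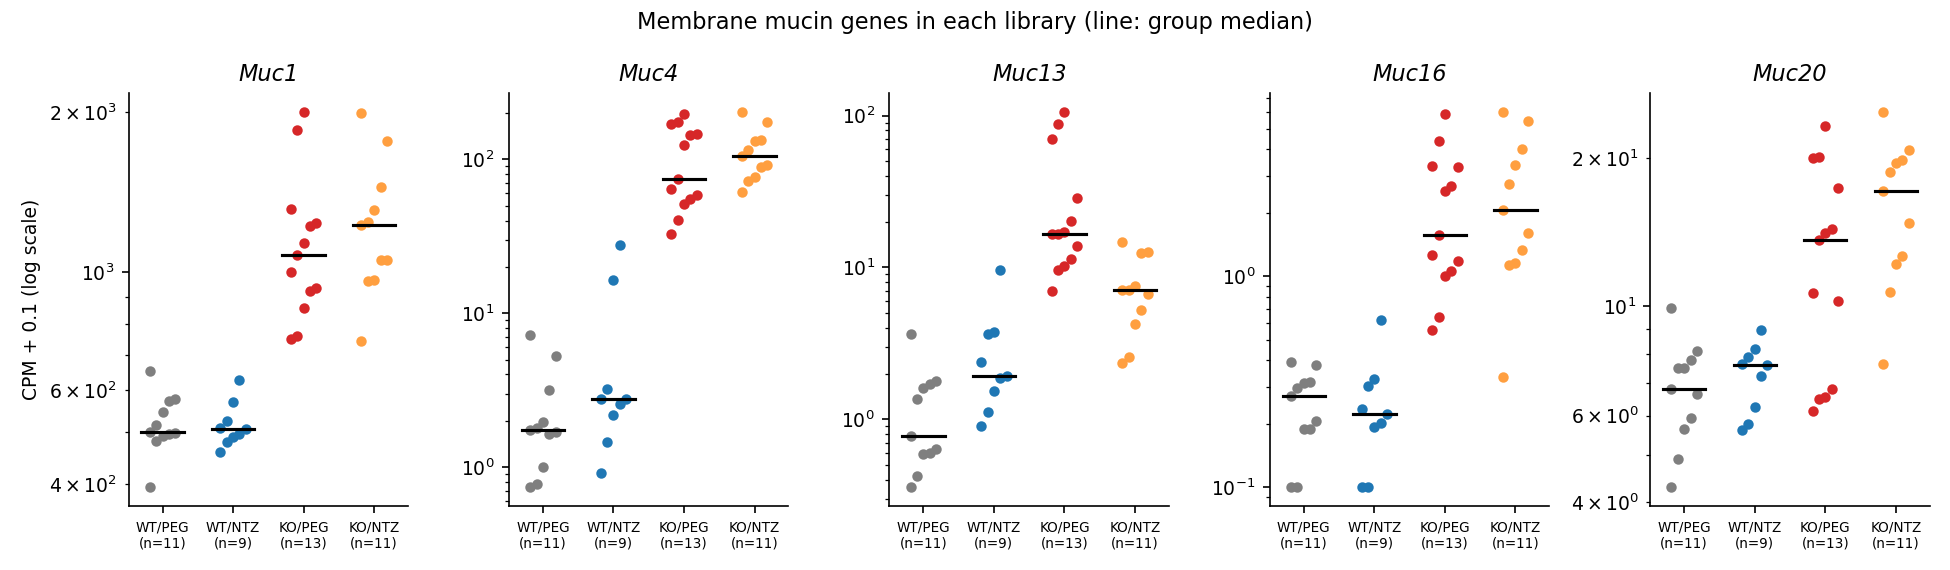
Level of each membrane mucin gene in the 44 libraries, as CPM plus 0.1 on a logarithmic axis that differs between panels, by group; points are libraries and lines are medians. Every KO/PEG library lies above every WT/PEG library for Muc1, Muc4 and Muc13, as for 5.47% of all genes tested. Muc16 does not overlap either, but it entered the test through the KO groups alone. The Muc13 median falls from 16.6 CPM in KO/PEG to 7.02 CPM in KO/NTZ.

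KO and WT libraries also differed in how counts relate to transcript length. The slope of a library's log2 CPM, relative to the mean of all libraries, on the log2 length of the gene's longest transcript was 0.117 to 0.326 in WT/PEG, 0.0547 to 0.264 in WT/NTZ, -0.341 to 0.154 in KO/PEG and -0.283 to -0.0747 in KO/NTZ, so longer genes were counted less in KO libraries, other than the library of KO/PEG animal 46 at 0.154, which lay above the lowest WT libraries. With this slope as a covariate, which was added after seeing the data, the KO/PEG against WT/PEG difference remained called for Muc4 (5.15, adjusted p = 3.48e-07), Muc13 (6.09, adjusted p = 5.01e-09) and Muc16 (3.61, adjusted p = 0.00151), and was no longer called for Muc1 (0.27, adjusted p = 0.361) and Muc20 (-0.11, adjusted p = 0.846; edgeR for all). The share of mitochondrial counts also moved with genotype, with medians of 9.57% in WT/PEG and 4.86% in KO/PEG. With it as a covariate Muc1, Muc4, Muc13 and Muc20 stayed called, Muc20 with the smallest difference (0.44, adjusted p = 0.0471, edgeR). So did Muc16, which entered the test through the KO groups alone.

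The estimated division of these counts among transcripts differed between genotypes. The shares were compared without the length slope as a covariate, so its part in them was not tested. Of the 3 Muc1 transcripts, Muc1-201 (chr3:89229057-89233381) is the protein-coding one, and Muc1-202 (chr3:89231471-89233197) and Muc1-203 (chr3:89231239-89232082) are annotated as processed transcripts. Muc1-201 held a mean of 92.1% ± 2.2 (SD, n = 11) of the Muc1 counts in WT/PEG and 75.2% ± 5.0 (n = 13) in KO/PEG, a difference of -16.9 percentage points (permutation test, two-sided, p = 1e-05, the smallest that 100000 permutations can give; adjusted p = 7.06e-05 over the 16 comparisons of shares). Muc1-202 took up most of the shift, at 2.89% to 10.5% in WT/PEG and 9.78% to 28.7% in KO/PEG. In CPM it rose by 3.14 ± 0.27 on the log2 scale (adjusted p = 2.52e-12, edgeR over 30782 transcripts), Muc1-203 by 1.56 ± 0.38 (adjusted p = 0.000597, edgeR) and Muc1-201 by 0.79 ± 0.13 (adjusted p = 2.21e-06, edgeR). Of all transcripts tested, 26.5% were called higher in this comparison, and their median log2 fold change was -0.12.

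The parting of these 2 Muc1 transcripts rests on a short stretch. Muc1-202 opens with an exon of 30 bases (chr3:89231471-89231500) that no other counted Muc1 transcript holds and joins it to the exon that starts at 89231763, which Muc1-201 reaches from the exon before it (chr3:89231501-89231634). The 60 bases over each junction are shown, with the bases before the junction in capitals and the shared exon in lower case.
Muc1-202: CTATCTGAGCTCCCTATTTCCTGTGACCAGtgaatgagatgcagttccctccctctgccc
Muc1-201: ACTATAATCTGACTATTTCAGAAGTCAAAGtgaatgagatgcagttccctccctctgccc
Of the 446 words of 31 bases in Muc1-202, 28 occur in no other counted Muc1 transcript, against 1572 of 2176 in Muc1-201 and 73 of 470 in Muc1-203. Most reads on Muc1-202 could therefore have come from Muc1-201 as well and were divided by the estimation of the authors' counting tool. With the length slope as covariate Muc1-202 was 0.89 higher on the log2 scale (adjusted p = 0.0268, edgeR) and Muc1-201 0.22 (adjusted p = 0.603, edgeR).

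For Muc4 most counts in KO/PEG were placed on transcripts that begin inside the gene. The longest protein-coding transcript, Muc4-201 (chr16:32735886-32782391, 11277 bases), was at a median of 0 CPM in all 4 groups. In KO/PEG 54.7% of the Muc4 counts were placed on Muc4-202 (chr16:32776283-32782384, 1348 bases, a processed transcript) and 37.3% on Muc4-205 (chr16:32756336-32782391, 4575 bases, protein coding). In WT/PEG these were 15.9% and 48.0%. Per library, Muc4-202 held 15.2% ± 11.6 (n = 8) of Muc4 counts in WT/PEG, with 3 libraries under 10 counts left out, and 60.4% ± 21.7 (n = 13) in KO/PEG, a difference of 45.2 points (exact permutation test, two-sided, p = 6.88e-05, adjusted p = 0.000275). Muc4-202 rose by 7.15 ± 0.66 on the log2 scale, Muc4-205 by 4.89 ± 0.72 and Muc4-206 by 3.24 ± 0.93, all called (edgeR). Muc4-202, at medians of 0.351 CPM in WT/PEG and 0.668 CPM in WT/NTZ, entered the test through the KO groups, as Muc16 did. The lengths of these transcripts, in that order, are 1348, 4575 and 10805 bases. The part of the length slope in the difference of shares was not tested. The call of Muc4-206 was lost with limma-trend (1.71, adjusted p = 0.0597), with the animal number as a covariate (2.16, adjusted p = 0.0799, edgeR) and within animals numbered 100 or above (0.97, adjusted p = 0.362, edgeR). Muc4-205 has no 31-base word of its own and Muc4-202 has 69 of 1318. How the counts divide among the Muc4 transcripts is therefore uncertain, while that division does not change the sum over the gene. Scaling by the longest transcript in place of the counted ones lowered Muc4 in KO/PEG from a median of 53.3 TPM to 12.2 TPM, and it stayed second.

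Muc13-201 (chr16:33794367-33819934) held 98.5% of the summed Muc13 counts in KO/PEG and 87.4% in KO/NTZ, Muc13-202 (chr16:33794037-33819927) the rest. Per library, its share in KO/NTZ had a median of 99.9995% and a lowest value of 25.8%. Mean shares of 93.2% in KO/NTZ and 94.3% in KO/PEG were not called different (permutation test, adjusted p = 0.806). For Muc16 (chr9:18495455-18674530, minus strand) only Muc16-201 (chr9:18495455-18512885), a protein-coding transcript of 1035 bases at the 3′ end, was counted of 4 annotated. The 3 longer or more upstream transcripts were not analysed here, and the Muc16 values are those of this one end of the gene. Muc20 (chr16:32777419-32797435, minus strand) lies tail to tail with Muc4, and the last exon of Muc20-202 shares 627 bases with Muc4 exons on the other strand. Counting was not stated to use strand, so reads there cannot be told apart. Muc20-202 held 5.75% of Muc20 counts in KO/PEG and 0.252% in WT/PEG, and Muc20-201, which ends before the overlap, was called higher on its own (0.83 ± 0.22, adjusted p = 0.00191, edgeR), but not with the mitochondrial share (0.22, adjusted p = 0.484, edgeR) or the length slope (-0.44, adjusted p = 0.537, edgeR) as a covariate.

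**Figure D2:**
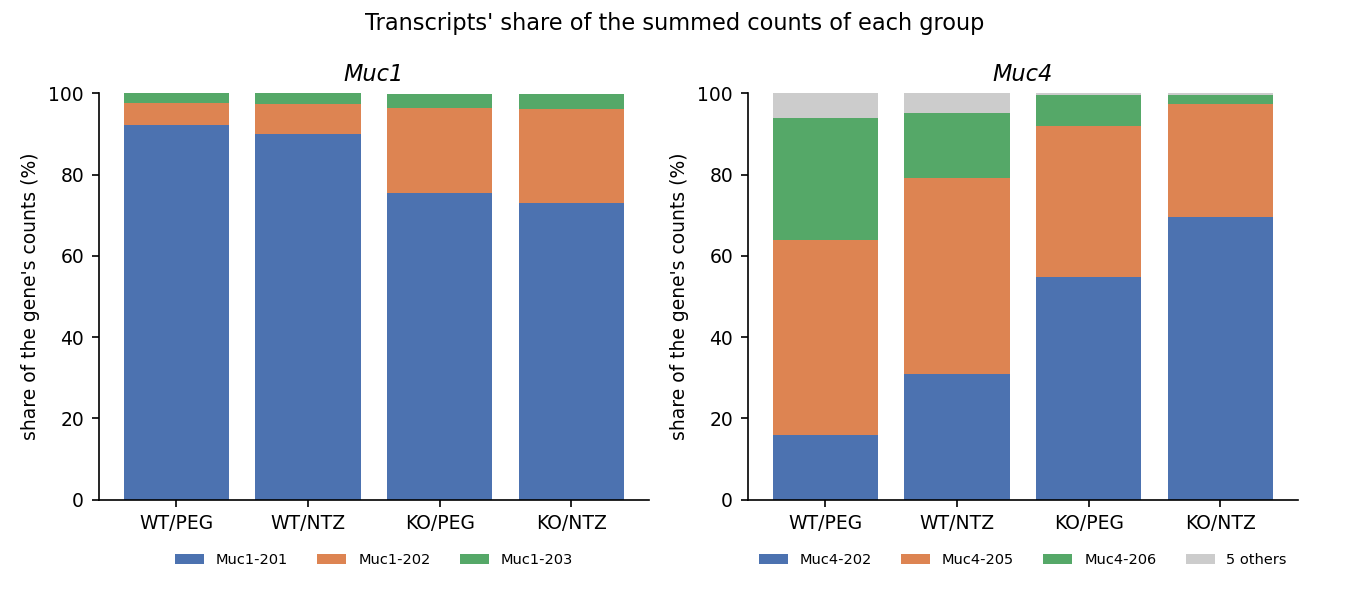
Share of each transcript in the counts of Muc1 (left) and Muc4 (right), in percent of the gene's counts summed over the libraries of a group. Muc1-202 widens from 5.35% in WT/PEG to 21.0% in KO/PEG, and Muc4-202 from 15.9% to 54.7%.

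The second comparison asked which of these genes respond to gastrin receptor blockade in KO mice. Muc13 fell, and the other 4 members did not pass the test. 2.6% of all genes were called lower in KO/NTZ than in KO/PEG. The 11 KO/NTZ libraries had 2.24, 7.02 and 14.7 CPM of Muc13 at the lowest, median and highest, and all 11 lay below the KO/PEG median of 16.6 CPM, although the ranges overlapped between 6.87 and 14.7 CPM. The log2 fold change was -2.09 ± 0.43 (fold 0.235, adjusted p = 0.00224, edgeR), the 72nd lowest of the 14893 genes. Muc13-201 alone fell by 2.31 on the log2 scale (adjusted p = 0.00527, edgeR, 1.9% of transcripts called lower).

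The 3 highest KO/PEG values of Muc13 all came from animals numbered below 100. In KO/PEG the 6 libraries numbered below 100 had 16.6 to 105 CPM (median 49.1) and the 7 numbered 100 or above had 6.87 to 20.3 CPM (median 11.2). Within animals numbered below 100, where the 10 KO/NTZ libraries had 2.24 to 12.6 CPM, the 2 treatments did not overlap, and the difference was -3.02 on the log2 scale (adjusted p = 0.00437, edgeR), a fold more than 1.5 times that over all animals. With the number as a covariate it was -2.13 (adjusted p = 0.00173, edgeR). The 1 KO/NTZ library numbered 100 or above had 14.7 CPM, and no within-number test was possible there.

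**Figure D3:**
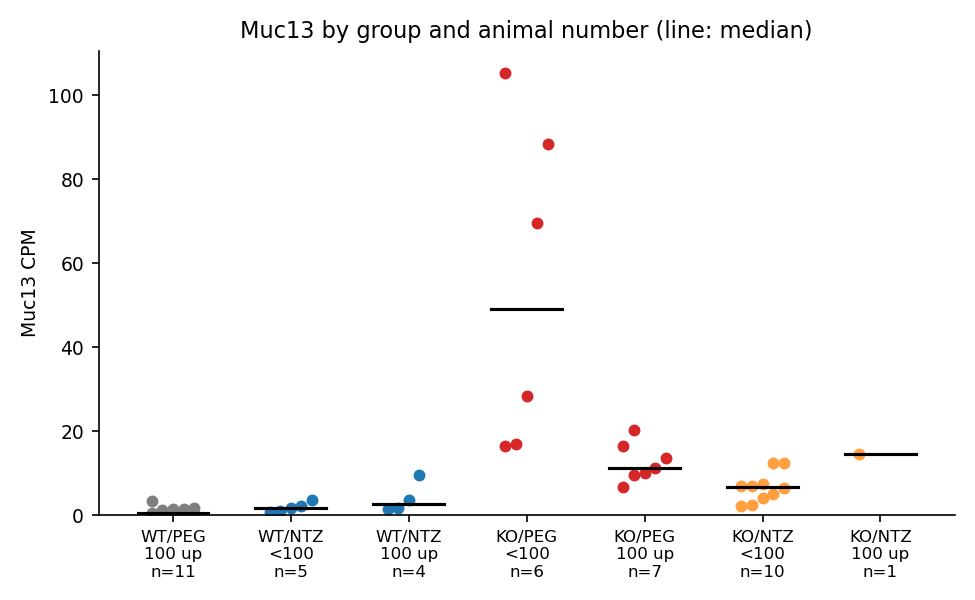
Muc13 in CPM in each library, split by group and by whether the animal number is below 100 or at least 100; lines are medians. The 6 KO/PEG libraries numbered below 100 lie at 16.6 to 105 CPM, above all 11 KO/NTZ libraries.

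The other members were not called between KO/NTZ and KO/PEG. The fold was 1.08 for Muc1 (95% interval 0.895 to 1.30), 1.11 for Muc4 (0.655 to 1.88), 1.17 for Muc16 (0.694 to 1.99) and 1.24 for Muc20 (0.957 to 1.62). The intervals of Muc4 and Muc16 are the widest of the 4. Within animals numbered below 100 both lay on the other side of 0, at -0.44 for Muc4 (adjusted p = 0.321, edgeR) and -0.37 for Muc16 (adjusted p = 0.627, edgeR) on the log2 scale. In KO/PEG, Muc4 had a median of 156 CPM in the 6 libraries numbered below 100 and 55.5 CPM in the other 7. The Muc1-201 share differed by -2.07 points and the Muc4-202 share by 14.2 points between these groups, neither called (permutation test, adjusted p = 0.392 and 0.174).

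Muc1, Muc4, Muc13 and Muc20 were also higher in KO/NTZ than in WT/NTZ and than in WT/PEG. In these comparisons 35.6% and 38.5% of all genes were called higher. Muc16 was called too, but it entered the test through the KO groups alone and is again not counted among them. Against WT/NTZ the log2 differences were 1.27 ± 0.16 for Muc1, 4.08 ± 0.51 for Muc4, 1.33 ± 0.50 for Muc13, 3.97 ± 0.57 for Muc16 and 1.17 ± 0.22 for Muc20. Muc1 and Muc4 did not overlap between these groups, as was the case for 14.4% of genes. Muc13 was the member nearest to the threshold (adjusted p = 0.0158, edgeR), and its call was lost with the animal number as a covariate (1.10, adjusted p = 0.0553, edgeR) and for Muc13-201 alone (1.08, adjusted p = 0.0740, edgeR). It was larger within animals numbered below 100 (1.82, adjusted p = 0.00228, edgeR), without the 4 libraries with Gast above 10 CPM (2.15, adjusted p = 0.000891, edgeR) and with the length slope as a covariate (2.35, adjusted p = 0.00701, edgeR). With that slope Muc20 was no longer called against WT/NTZ (0.30, adjusted p = 0.555, edgeR), nor were Muc1 (0.36, adjusted p = 0.281, edgeR) and Muc20 (0.18, adjusted p = 0.770, edgeR) against WT/PEG. Against WT/PEG, Muc13 in KO/NTZ remained 2.74 ± 0.52 higher (adjusted p = 8.59e-06, edgeR), so that the treated KO mice stood between untreated KO and WT mice. These comparisons share their control libraries with those above.

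**Figure D4:**
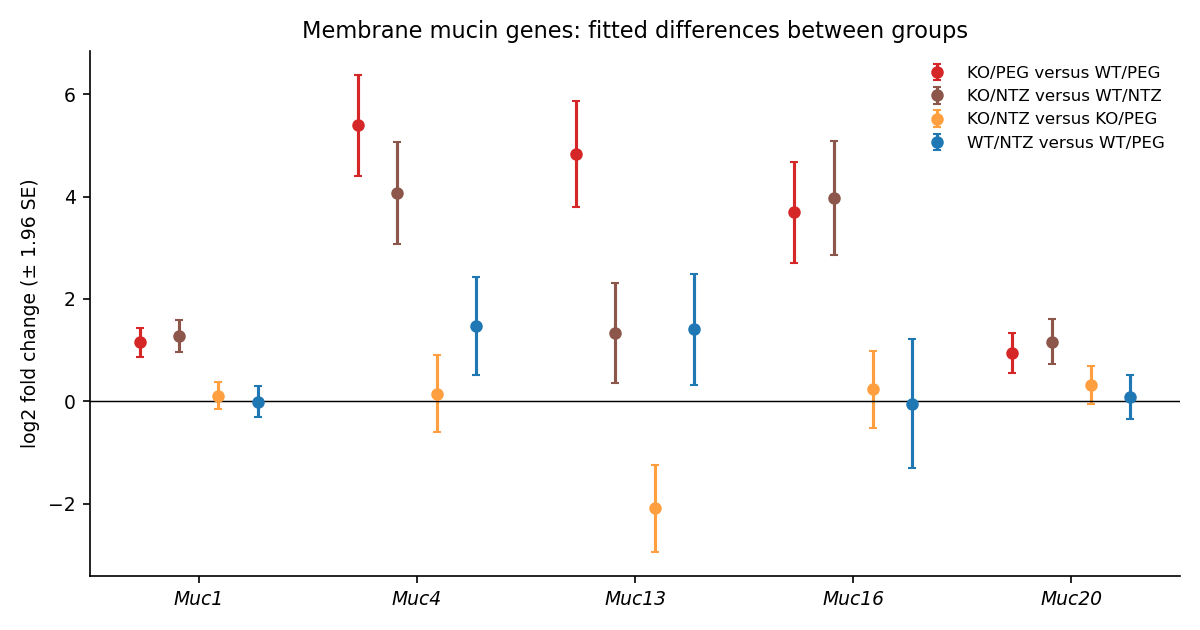
Fitted log2 fold change of each membrane mucin gene in 4 comparisons, with 95% intervals as bars. Both KO against WT comparisons lie above 0 for every gene, and NTZ in KO lies below 0 for Muc13 only, at -2.09.

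In WT mice no member passed the test between NTZ and PEG, where 1.02% of genes were called higher. Muc4 was 1.47 ± 0.49 higher on the log2 scale in WT/NTZ (adjusted p = 0.208, edgeR) and Muc13 1.41 ± 0.55 (adjusted p = 0.377, edgeR). All WT/PEG libraries are numbered 100 or above, and against the 4 WT/NTZ libraries of such numbers alone both were called, Muc4 at 2.40 (adjusted p = 0.0228, edgeR) and Muc13 at 1.93 (adjusted p = 0.0424, edgeR). DESeq2 also called Muc4-202 over all libraries (2.39, adjusted p = 0.0211), which edgeR did not (2.36, adjusted p = 0.127). Muc1 (fold 0.996, 95% interval 0.809 to 1.22), Muc20 (1.06, 0.788 to 1.43) and Muc16 (0.969, 0.402 to 2.34) were close to 1, for Muc16 with a wide interval.

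The higher Muc4 of WT/NTZ came from 2 libraries, with 27.6 and 16.3 CPM, and the other 7 had 0.819 to 3.13 CPM. These are the 2 WT/NTZ libraries with Gast at 31.3 and 40.0 CPM, in that order, against at most 0.340 CPM in the other 7. In WT/PEG the highest Muc4, 7.11 CPM, was in animal 120, the library with Gast at 14.6 CPM. Muc13 was also highest in the WT/NTZ library with the highest Muc4, at 9.55 CPM. Forestomach squamous markers (7 of 7 counted) were present in these libraries too, with summed levels of 686 and 3615 CPM in the same order, and WT/NTZ libraries with 1025 and 1105 CPM had Muc4 of 2.48 and 3.13 CPM. Intestinal epithelial markers summed to 69.7 and 59.0 CPM in the same 2 libraries, in that order, against at most 50.8 CPM in the other 7, and leukocyte markers to 57.3 CPM in the first of them against at most 17.2 CPM in the other 8. Their part in the Muc4 values was not tested. Both libraries are among the 4 WT/NTZ libraries numbered 100 or above. Without the 4 libraries with Gast above 10 CPM, an alternative added after seeing the data, the WT/NTZ against WT/PEG difference was 0.25 ± 0.43 for Muc4 and 0.79 ± 0.61 for Muc13 (adjusted p = 1 for both, edgeR). Under this alternative Muc1, Muc4, Muc13 and Muc20 stayed called in KO/PEG against WT/PEG. So did Muc16, which entered the test through the KO groups alone. The fold of Muc4 in KO/NTZ over WT/NTZ also moved by more than 1.5 times, from 4.08 to 5.74 on the log2 scale.

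**Figure D5:**
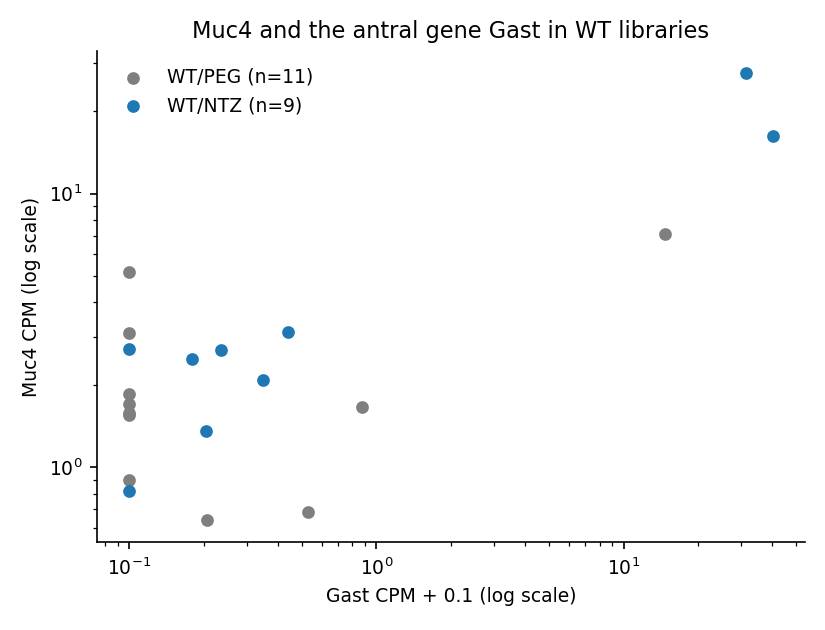
Muc4 in CPM against Gast in CPM plus 0.1, both on logarithmic axes, in the 20 WT libraries; each point is a library. The 3 libraries with Gast above 10 CPM have the 3 highest Muc4 values, 7.11, 16.3 and 27.6 CPM.

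The NTZ effect differed between genotypes for Muc13. The difference of the 2 effects was -3.50 ± 0.70 on the log2 scale (adjusted p = 0.0103, edgeR interaction term), in a test in which 0.712% of genes were called lower. Without the 4 libraries with Gast above 10 CPM it was -2.78 (adjusted p = 0.0949, edgeR) and was no longer called, whereas the fall of Muc13 in KO mice was -1.99 (adjusted p = 0.00378, edgeR). For Muc4 the difference of effects was -1.32 ± 0.63 (adjusted p = 0.397, edgeR), and -0.05 without those libraries.

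Within the KO groups the members did not vary as one. Over the 13 KO/PEG libraries Muc4 and Muc16 had Pearson's r of 0.76 in log2 CPM (Spearman's rho 0.70), with permutation p = 0.00357 and 0.00885, or 0.0357 and 0.0590 adjusted over 20 relations, and r was 0.72 without the 2 libraries farthest from the Muc4 median. It was 0.60 within the 6 animals numbered below 100 and 0.71 within the other 7. The same pair had r of 0.76 (rho 0.70, adjusted permutation p = 0.0423 and 0.0823) over the 11 KO/NTZ libraries, 0.53 without the 2 farthest. Muc1 and Muc20 went together in KO/NTZ, with r of 0.86 and rho of 0.85 (permutation p = 0.00064 and 0.00187, adjusted 0.0128 and 0.0187), 0.85 without the 2 farthest and 0.86 within the 10 animals numbered below 100. In KO/PEG their r was 0.59 (adjusted permutation p = 0.0847). In KO/NTZ, library 25, of the highest length slope (-0.0747), had the lowest Muc1 and Muc20 (744 and 7.53 CPM). Library 29, of the lowest slope (-0.283), had 1768 and 24.7 CPM, but library 36 (-0.245) had 1054 and 12.1 CPM. The part of the length slope in this relation was not tested. Muc4 and Muc13 had r of 0.69 in KO/PEG (rho 0.68, adjusted permutation p = 0.0473 and 0.0675), but 0.46 and 0.30 within the 6 animals numbered below 100 and the other 7, both lower than over all 13, a difference that was not tested. Muc13 and Muc16 in KO/NTZ had r of 0.71 and rho of 0.85 (adjusted permutation p = 0.0581 and 0.0187).

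The genes whose levels followed each member most closely over the 24 KO libraries, after subtraction of the group means, are given as a description without a test. For Muc1 these were Dcxr (r = 0.96), Wfdc2 (0.94), a marker of neck-like metaplastic glands that was itself 5.60 higher on the log2 scale in KO/PEG, and 1810043G02Rik (0.94). For Muc20 they were Gm45837, Nxn and Pgghg (0.94 to 0.95), for Muc4 Cyp2f2, Sh3pxd2b and Itprid1 (0.85 to 0.86), for Muc13 Adora1, Prom1 and Gpr35 (0.82 to 0.84) and for Muc16 Tacr1, Tlr2 and Cyp4a12a (0.79 to 0.81). Prom1, a membrane glycoprotein of cell protrusions, was higher in KO/PEG by 2.28 on the log2 scale and fell by 0.54 with NTZ in KO mice (adjusted p = 0.00602, edgeR). Adora1, the first in likeness to Muc13, fell by 0.81 in KO/PEG (adjusted p = 1.9e-07, edgeR), and neither it nor Gpr35 was called with NTZ in KO mice (-0.36, adjusted p = 0.0759, and -0.10, adjusted p = 0.839, edgeR). Cyp2f2 and Tacr1 went the other way, 3.16 and 1.56 higher in KO/NTZ than in KO/PEG (adjusted p = 0.00234 and 0.00317, edgeR), while Muc4 and Muc16 did not pass the test there.

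Other genes listed with the family are given as a description. Of 10 further genes, membrane mucins, sialomucins and the adhesion glycoprotein Mcam, 7 were counted and 5 passed the filter. Of these 5, 2 were higher and 2 lower in KO/PEG than in WT/PEG. Of all 14893 genes tested, 5584 were higher and 5534 lower in that comparison. Muc3a, an intestinal membrane mucin, rose by 3.90 on the log2 scale from a mean of 0.0674 CPM to 1.28 CPM (adjusted p = 3.62e-08, edgeR), and Emcn, the endothelial sialomucin, by 0.54. Muc3a entered the test through the KO groups, as Muc16 did. Its means in WT/PEG and in WT/NTZ (0.155 CPM) were under the 0.82 CPM of the filter. Mcam and the sialomucin Cd164 fell by 0.65 and 0.64. With NTZ in KO mice Mcam rose by 0.53 (adjusted p = 0.00471, edgeR), 1 of 5 called higher and 0 lower, against 442 higher and 387 lower of all 14893 genes.

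Of 11 genes reported as binding partners, all tested, 5 were higher and 3 lower in KO/PEG than in WT/PEG, with a median of 0.06. Over all 14893 genes tested, 5584 were higher and 5534 lower there, so counts such as these are not read as a result about the partners. Msln, mesothelin, which binds Muc16, had the largest rise, 4.25 ± 0.41 on the log2 scale (adjusted p = 1.04e-11, edgeR), from a mean of 0.488 to 8.99 CPM. Its means in WT/PEG and in WT/NTZ (0.544 CPM) were under the 0.82 CPM of the filter. Msln therefore entered the test through the KO groups, as Muc16 did. Msln fell by 1.45 ± 0.34 with NTZ in KO mice (adjusted p = 0.00642, edgeR), where Muc16 did not pass the test. Lgals3, galectin-3, which binds the glycans of Muc1, rose by 2.10 (adjusted p = 1.84e-08, edgeR) and by a further 0.89 with NTZ in KO mice (adjusted p = 0.0358, edgeR). Src rose by 0.55 and Erbb2, the receptor bound by Muc4, by 0.33, and Ezr and Gsk3b fell by 0.72 and 0.85. Met, the receptor bound by Muc20, was not called (0.06 ± 0.14). Of 4 proteases that shed membrane proteins, Mmp14 rose by 1.11 and Adam9, Adam10 and Adam17 fell by 0.31, 0.66 and 0.40.

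Markers of other cells moved with some of these results. The counts of markers stand beside those of all 14893 genes tested, of which 5584 were higher and 5534 lower in KO/PEG than in WT/PEG. In KO/NTZ against KO/PEG 442 were higher and 387 lower, and in KO/NTZ against WT/NTZ 5480 were lower. Neck and metaplastic gland markers (4 of 4) were higher in KO/PEG, with a summed level of 1797 to 2702 CPM in WT/PEG and 5108 to 57317 CPM in KO/PEG, and intestinal epithelial markers (3 of 6 passed the filter and rose) had sums of 9.82 to 29.2 CPM and 63.1 to 181 CPM. Of these 3, Cftr (means of 0.165 CPM in WT/PEG and 0.436 CPM in WT/NTZ) entered the test through the KO groups, as Muc16 did. The transcription factors Cdx1 and Cdx2 that define intestinal epithelium were at mean levels of 0.0158 and 0.0417 CPM in KO/PEG, under the floor of 3 counts. Of 5 mesothelial markers 2, Msln and Upk1b, were higher in KO/PEG and fell with NTZ in KO mice, while Wt1 and Lrrn4 were at 0.0639 and 0.0635 CPM and Upk3b was at 0.427 CPM, below its mean of 0.716 CPM in WT/PEG. Upk1b, at means of 0.220 CPM in WT/PEG and 0.124 CPM in WT/NTZ, also entered the test through the KO groups, as did Msln. Leukocyte markers (3 of 4 higher) had median sums of 9.63 CPM in WT/PEG and 20.9 CPM in KO/PEG. Of the surface pit markers, 3 of 4 were lower in KO/PEG, with sums of 84964 to 117529 CPM in WT/PEG and 14474 to 105576 CPM in KO/PEG. All 3 chief and all 3 parietal markers tested were lower. Squamous markers, 7 of 7 tested, were not called in KO/PEG against WT/PEG or in KO/NTZ against KO/PEG, 5 of them were lower in KO/NTZ than in WT/NTZ, and their sums of 1.20 to 403 CPM in WT/PEG and 2.45 to 538 CPM in KO/PEG overlapped. The 3 endocrine markers rose in KO/PEG and fell with NTZ, as Muc13 did, with sums of 755 to 2486 CPM in KO/PEG and 559 to 859 CPM in KO/NTZ. The part of these cells in the mucin values was not tested.

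The genes around the members were counted as a description, with no test, beside the 37.5% of all genes called higher and the 5534 of 14893 called lower. Within 500 kb, 21 of the 35 tested neighbours of Muc1 were higher and 8 lower in KO/PEG than in WT/PEG, 5 of 16 and 8 of 16 for Muc4, 4 of 14 and 7 of 14 for Muc20, 2 of 7 and 4 of 7 for Muc13, and 0 of 2 and 2 of 2 for Muc16. The median log2 fold change was 0.55 over the neighbours of Muc1 and -0.65 to -0.24 over those of the other members. Muc4 and Muc20 are among each other's neighbours. By adjusted p the first were Syt11 (-1.11) and Slc50a1 (1.37) near Muc1, Tctex1d2 (0.84) near Muc4 and Muc20, Kcnn3 (-2.53) near Muc1 and Slc12a8 (2.35) near Muc13, all on the log2 scale. In KO/NTZ against KO/PEG, where 442 of all 14893 genes were called higher and 387 lower, 2 neighbours of Muc1 were higher and 0 lower. There, 1 neighbour of Muc4 and Muc20 (the same gene, Tfrc) and 2 of Muc13 (Kalrn and Umps) were lower. These 3 genes were named after their values were seen.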

How the data were processed

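RNA of gastric corpus biopsies was sequenced by the authors as single reads of 75 bases from stranded mRNA libraries and quantified with kallisto (version 0.42.4) on GRCm38 transcripts; the table deposited by the authors holds the estimated counts per transcript of 44 libraries. Of 94080 transcripts 92284 matched GENCODE vM21 and were summed by gene name; the other 1796 held 0.351% to 1.33% of a library's counts. The authors' own tests (sleuth) need resampled counts and were not repeated.

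Counts were rounded and tested in R 4.3.3 with edgeR 4.0.16 (quasi-likelihood F test, TMM factors of 0.827 to 1.41, filterByExpr with at least 10 counts, 15 in total), one fit over all 44 libraries and 14893 genes, and one over 30782 transcripts, with Benjamini-Hochberg adjustment. CPM used library sizes after TMM. Alternatives used DESeq2 1.42.0 and limma 3.58.1. Correlations used log2 CPM with a prior count of 2. Shares and correlations were tested by permutation (100000, exact where a group had under 10 libraries). 2 WT/PEG libraries carry animal number 172 and the number 110 occurs in both KO groups; each library was counted once. No 2 libraries of a group agreed within sampling noise (lowest chi-square per degree of freedom 5.96). This shows that none was deposited in duplicate within its group, but not whether libraries share an animal. Pairs from different groups, such as the libraries numbered 110, were not compared. An alternative summed the WT/PEG pair. Nothing says that libraries came from separate animals, so p-values measure the spread between libraries. The fit was tested on simulated data in which few genes changed, in KO/PEG only, with the same spread for all and no length slope. It was not tested under the wider differences of these data.

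The members and lists were chosen with earlier results of these data known. Named were the 5 members, their transcripts past the filter, Atp4b, called neighbours within 500 kb (smallest p first, at most 10), the 3 most correlated genes per member and at most 6 called genes of each list. Motifs and the Gast limit of 10 CPM were chosen after seeing the data.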

Additional observations from a re-analysis of the deposited data

Results flagged for a closer look

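In WT/NTZ, the only group of 4 to 10 libraries, the highest Muc13 value, 9.55 CPM, and the highest Muc16 value, 0.520 CPM in animal 98, stood apart from the other 8 libraries by more than Dixon's 95% limit for 9 samples (gap over range 0.676 and 0.563, limit 0.493). Chance flags about 1 group in 20, and 10 ends of 5 genes were examined. The Muc16 value rests on 5 counts. The library with the highest Muc13 also had the highest Muc4 of its group and Gast at 31.3 CPM.

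The NTZ effect on Muc13 differed between genotypes, by -3.50 on the log2 scale (adjusted p = 0.0103, edgeR interaction term). In KO mice 11 of 11 treated libraries lay under the median of the vehicle group, and in WT mice 0 of 9 did. The difference was -2.97 without the WT/NTZ library of highest Muc13 (the smallest value when leaving out 1 library), and without the 4 libraries with Gast above 10 CPM it was -2.78 and no longer called (adjusted p = 0.0949, edgeR).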

How the results depend on the processing

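Values are log2 fold changes or, where marked %, shares of the genes tested that were called. Calls of Muc1, Muc4, Muc13 and Muc20 in KO/PEG against WT/PEG kept their side of the threshold under every alternative other than the length slope. The fall of Muc13 in KO/NTZ against KO/PEG did so under all alternatives. Muc16 entered the test through the KO groups alone, and its call held where a value was given (none within animals of 100 or above).

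With the length slope as covariate, KO/PEG against WT/PEG gave 0.268 for Muc1, -0.105 for Muc20, -0.436 for Muc20-201 and 14.1% higher (main 37.5%); KO/NTZ against WT/NTZ gave 0.299 for Muc20 and 10.5% higher (35.6%); KO/NTZ against WT/PEG gave 0.359 for Muc1, 0.184 for Muc20, -0.125 for Muc20-201 and 9.74% higher (38.5%); WT/NTZ against WT/PEG gave -0.115 for Muc20, -0.157 for Muc20-201, 0.0357 for Muc16-201 and 0.208% higher (1.02%). It gave 5.26% lower in KO/NTZ against KO/PEG (2.6%), and for the difference of NTZ effects 4.27% lower (0.712%) and 0.186 for Muc1-202. With the mitochondrial share, KO/NTZ against KO/PEG gave -0.00175 for Muc1, -0.0374 for Muc1-201, 0.0127 for Muc1-203, 0.173 for Muc4-205 and 0.0985 for Muc4-206, KO/NTZ against WT/NTZ gave 22.5% higher and the difference of effects 1.21% lower.

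With the animal number as covariate Muc13 in KO/NTZ against WT/NTZ was 1.10, and with its main transcript alone 1.08, neither called. The number also gave 4.79% lower and 0.00945 for Muc1-203 in KO/NTZ against KO/PEG, and 1.84% higher and 0.0133 for Muc1 in WT/NTZ against WT/PEG. Within animals below 100, KO/NTZ against KO/PEG gave -0.438 for Muc4, -0.368 for Muc16, -0.400 for Muc16-201, -0.0262 for Muc1-201 and 0.532% lower. Within animals of 100 or above, WT/NTZ against WT/PEG gave 2.40 for Muc4 and 1.93 for Muc13, both called, 0.00280 for Muc1 and 4.16% higher. Without the libraries numbered 110, Muc16 was -0.0309 and Muc16-201 -0.0517 in KO/NTZ against KO/PEG and -0.0479 for the difference of effects.

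Without the 4 libraries with Gast above 10 CPM, WT/NTZ against WT/PEG gave 0.0334% higher, 0.0280 for Muc16-201, -0.121 for Muc4-206 and -0.178 for Muc1-203, and the difference of effects was -2.78 for Muc13 (no longer called) and 0.171 for Muc1-203, with 0.14% lower.

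DESeq2 gave 4.75% lower in KO/NTZ against KO/PEG, 1.36% lower for the difference of effects and 0.00745 for Muc1 in WT/NTZ against WT/PEG; limma-trend gave 0.195% lower for the difference and 0.0134% higher for WT/NTZ. A fit of only the 2 groups gave 0.863% lower in KO/NTZ, and in WT/NTZ 0.0194 for Muc1 and 0 genes higher by edgeR (2118 genes at an unadjusted p under 0.05). In WT/NTZ, Muc1 was 0.00743 with RLE and 0.00525 with the 2 WT/PEG libraries of 1 animal number summed, which gave 0.0141 for Muc16-201 and -0.0104 for Muc1-203, and without a filter Muc16-201 was 0.0388 and Muc1-201 0.000505.

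Leaving out 1 library in turn, Muc1 in WT/NTZ against WT/PEG ran from -0.0409 to 0.0389 and Muc16 from -0.461 to 0.146. The share higher there ran from 0.381% to 1.63%, the lowest without the WT/NTZ library of highest Muc4 and the highest without WT/NTZ 93. The share lower in KO/NTZ against KO/PEG ran from 1.61% (without KO/NTZ 37) to 6.21% (without KO/NTZ 25), and for the difference of effects from 0.395% to 1.12%, at the same libraries as for WT/NTZ. The causes were not tested.

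No paired analysis was possible because the groups compared share at most 1 animal number. A prior count of 0.25 reversed no correlation. Scaled by the longest transcript, Muc4 in WT/PEG fell to the last place of the 5 genes.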
